A study of Mus musculus with 10 samples.

Results

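The Dlx genes encode homeodomain transcription factors that act in the forebrain, the branchial arches, the skeleton and the skin and its appendages. The mouse has 6 of them, arranged as 3 bigene clusters, Dlx1-Dlx2, Dlx3-Dlx4 and Dlx5-Dlx6. All 6 were examined here among 21951 protein coding genes for H3K27me3, the trimethylation of histone H3 at K27, a lysine, which the Polycomb repressive complex PRC2 writes and which marks silent developmental genes. The data were CUT&Tag peaks from long-term hematopoietic stem cells (LT-HSCs) of the mouse fetal liver. CUT&Tag tethers a transposase to the antibody-bound mark, so that the sequenced fragments pile up where the mark lies. Peaks were taken at the promoters (from 5 kb before to 100 bp past any transcription start site, TSS), over the gene bodies and in the space between the paired genes. By that rule 50 of 23606 peaks in the 6 H3K27me3 libraries belonged to the Dlx clusters. WT replicates 1, 2 and 3 held 9, 7 and 5 of them, and KO replicates 1, 2 and 3 held 8, 9 and 12.

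LT-HSCs had been sorted as LSK CD48-CD150+ cells at E14.5 from wild type (WT) embryos and from embryos with a germline knockout (KO) of IκBα, the NF-κB inhibitor encoded by Nfkbia, obtained from heterozygous matings. In this model every cell of the embryo lacks the gene, so the stem cells developed in a KO environment. Whether the matings behind these libraries carried the Gfi1:tomato reporter used in some of the study's crosses, and which embryos entered which library, was not given in the labels. Each genotype had 3 libraries. Where 3 values of a genotype are listed, they stand in the order of replicates 1, 2 and 3 throughout. Replicates 1 and 2 of both genotypes were read with 75 bp reads and replicate 3 of both with 50 bp reads. The 4 IκBα CUT&Tag samples of the series were not analysed here.

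Replicate 3 of both genotypes stood apart, and WT replicate 3 most. The 4 libraries with 75 bp reads had 4160 to 6013 peaks with a median width of 3475 to 3624 bp, whereas WT replicate 3 had 1047 peaks (median width 1727 bp) and KO replicate 3 had 2325 (2835 bp). The maximum signal of a peak, its highest fragment coverage, had a library median of 6 in WT replicate 3 and of 9 or 10 in the other 5 libraries. The highest point of a typical peak thus rested on few overlapping fragments. Of the genes that hematopoietic stem cells use, 0 of 15 had a promoter peak in any library. Promoter peaks were found in at least 1 library at 1 of 8 hepatocyte genes (Cebpa, which hematopoietic progenitors also use), at 1 of 6 erythroid genes (Hba-a1) and at 2 of 6 endothelial genes (Sox17 and Kdr), all of which were picked out after their values were seen. All 6 neural crest and brain genes had one, and 15.9% of all protein coding genes did. As most genes of the hepatocyte, erythroid and endothelial lists lacked one too, these counts cannot check the label of the sorted cells. In sorted cells measured in bulk, fewer cells with the mark and less of the mark per cell cannot be told apart.

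Dlx genes are best known from tissues outside the blood. Dlx1, Dlx2, Dlx5 and Dlx6 direct the formation of GABAergic interneurons in the ventral forebrain and the patterning of the jaw. Dlx5 and Dlx6 also act in bone and limb, Dlx3 in placenta, epidermis, hair and tooth, and Dlx4 is the least studied member. The paired genes face each other tail to tail, and the space between them is known to hold enhancers that both genes share.

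On GRCm38 the Dlx1-Dlx2 cluster covered chr2:71523113-71551754 (28.6 kb), with Dlx1 on the plus strand at 71528113 to 71533981 and Dlx2 on the minus strand at 71543408 to 71546754. The Dlx3-Dlx4 cluster covered chr11:95115119-95151263 (36.1 kb), with Dlx3 on the plus strand at 95120119 to 95125296 and Dlx4 on the minus strand at 95140447 to 95146263. The Dlx5-Dlx6 cluster covered chr6:6858334-6887085 (28.8 kb), with Dlx6 on the plus strand at 6863334 to 6868568 and Dlx5 on the minus strand at 6877805 to 6882085. Noncoding genes are annotated within the clusters (Dlx1as, Dlx4os, Dlx6os1 and Dlx6os2), and the assay, which does not read strand, cannot assign a peak to a gene or to its antisense partner. The gap between the paired gene bodies was 9.43, 15.2 and 9.24 kb, in the same order.

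**Figure D1:**
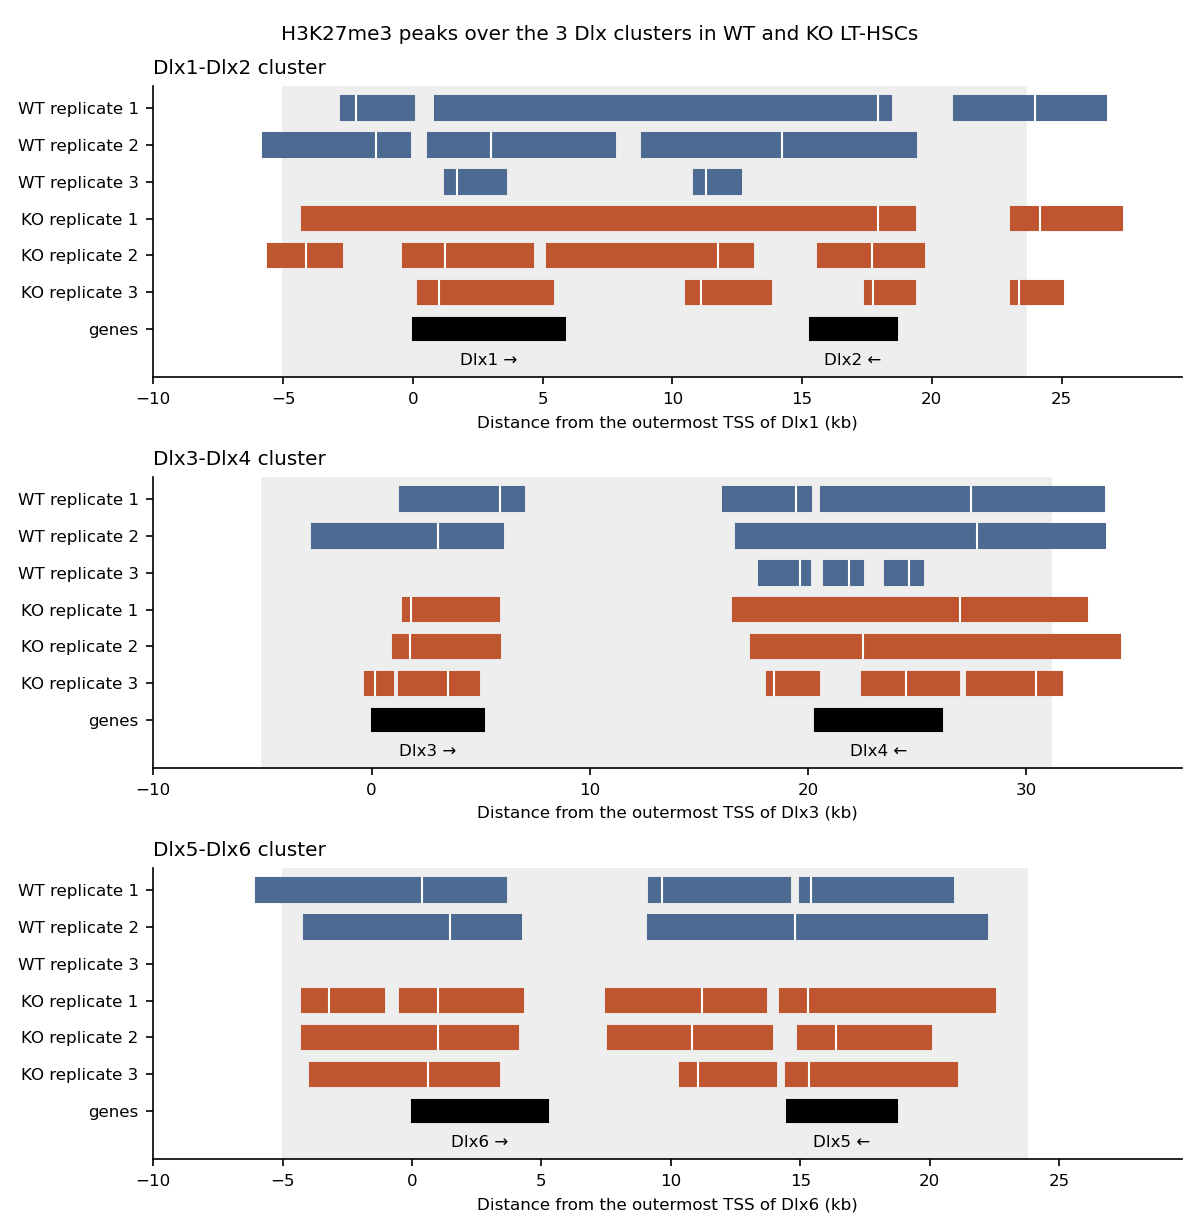
H3K27me3 peaks (bars) that overlap each Dlx cluster (grey) in each WT (blue) and KO (orange) library, with distance in kb from the outermost TSS of the left gene on the x axis and 1 row per library; white lines mark the point of maximum signal and black boxes the gene bodies with their direction of transcription. The 9152 bp between Dlx3 and Dlx4 that no library covered and the empty row of WT replicate 3 at Dlx5-Dlx6 stand out.

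All 3 clusters held peaks in 5 of 6 libraries. The widest single peak spanned 23.6 kb and ran without a break from the Dlx1 upstream window to the Dlx2 promoter in KO replicate 1. In WT replicate 1 a peak of 17.6 kb covered most of the same stretch. Other libraries broke it into shorter peaks, the widest being 10.6 kb in WT replicate 2, 7.93 kb in KO replicate 2, 5.19 kb in KO replicate 3 and 2.35 kb in WT replicate 3. In the Dlx3-Dlx4 cluster the widest peak reached 12.9, 16.9 and 2.32 kb across WT and 16.2, 16.9 and 4.43 kb across KO. It lay over Dlx4 in all libraries but WT replicate 3, where it lay in the gap beside that gene. Ranked by total signal, the sum of coverage over a peak, the best peak of the Dlx1-Dlx2 cluster stood at 26, 233 and 131 across WT and at 19, 629 and 347 across KO. That of the Dlx3-Dlx4 cluster stood at 69, 45 and 225 across WT and at 71, 19 and 375 across KO, so the ranks of the genotypes overlapped. In the Dlx5-Dlx6 cluster the best peak stood at 264 and 246 in WT replicates 1 and 2 and at 456, 464 and 92 across KO. WT replicate 3 had no peak there. The ranks come from lists of 1047 to 6013 peaks, so the same rank is not the same share of a list in each library.

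To show the letters that the mark covered, the RefSeq promoter sequences (250 bases before to 50 after a TSS, GRCm38.p6) are given for Dlx1 and Dlx2, the members held by the RefSeq table used; Dlx3, Dlx4, Dlx5 and Dlx6 were not in it. CG dinucleotides are in capitals. The Dlx1 window, chr2:71529195-71529494 on the plus strand, was covered whole by peaks of 5 libraries and touched in 6, and overlaps an exon of Dlx1 and an intron of Dlx1as in GENCODE. The Dlx2 window, chr2:71546705-71547004 on the minus strand, was covered whole in 4 libraries and spans the first bases of the gene and its upstream sequence.
Dlx1: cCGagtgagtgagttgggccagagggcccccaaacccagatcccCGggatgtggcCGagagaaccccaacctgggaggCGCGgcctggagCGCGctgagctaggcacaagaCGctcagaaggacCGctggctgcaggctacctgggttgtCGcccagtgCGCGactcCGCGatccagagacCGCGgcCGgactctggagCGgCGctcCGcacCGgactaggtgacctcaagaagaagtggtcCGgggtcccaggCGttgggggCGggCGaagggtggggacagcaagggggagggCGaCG
Dlx2: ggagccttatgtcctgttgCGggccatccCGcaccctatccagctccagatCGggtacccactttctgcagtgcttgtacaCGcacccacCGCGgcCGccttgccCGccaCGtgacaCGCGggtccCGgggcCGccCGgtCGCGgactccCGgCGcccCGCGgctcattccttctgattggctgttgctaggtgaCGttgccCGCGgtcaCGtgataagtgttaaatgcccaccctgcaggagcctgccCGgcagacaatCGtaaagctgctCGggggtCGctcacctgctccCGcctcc
Dlx1 had 27 CG dinucleotides and Dlx2 had 29, against a median of 7 over 32851 RefSeq promoters of the same length. The homeodomain core TAATTA, its own reverse complement, was in neither window and in 5.29% of all promoters. The nuclear receptor half-site AGGTCA, searched on both strands and sharing no letters with TAATTA matches in these windows, was in the Dlx1 window, not in the Dlx2 window and in 16.3% of all promoters.

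In 4 of 6 libraries the maximum signal of the Dlx1-Dlx2 cluster lay in Dlx2. The stretch that just holds these 4 maxima, chr2:71545799-71546054 on the minus strand, is 256 bases long. Its limits were drawn from the maxima themselves, so that they lie within it is by construction. In the protein coding transcript of GENCODE, 71 of these bases are coding sequence at the end of the first exon and the rest is intron, 152 bases of which are also an exon of a transcript annotated as a retained intron. Capitals mark the bases of highest coverage, first those of WT replicate 1 and KO replicate 1 (maximum signal 16 and 19), then those of KO replicate 3 (16) and last those of KO replicate 2 (15).
Dlx2, maxima: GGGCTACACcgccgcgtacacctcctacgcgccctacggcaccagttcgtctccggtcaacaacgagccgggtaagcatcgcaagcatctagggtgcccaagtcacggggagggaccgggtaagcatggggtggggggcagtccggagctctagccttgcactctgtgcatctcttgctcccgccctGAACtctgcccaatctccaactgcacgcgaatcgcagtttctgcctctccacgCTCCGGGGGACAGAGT
A peak covered the whole stretch in 5 libraries and no peak touched it in WT replicate 3, whose maximum of 9 lay in Dlx1. The highest value of WT replicate 2, 12, was reached outside it.

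Dlx6os1 was used as a contrast within 1 cluster, because 2 RefSeq promoters of this noncoding gene differed in their peaks. The window chr6:6861634-6861933 (minus strand), upstream of Dlx6, was covered in 5 libraries. The window chr6:6869484-6869783 (minus strand), beyond the 3′ end of Dlx6, was covered in 0.
Dlx6os1, covered: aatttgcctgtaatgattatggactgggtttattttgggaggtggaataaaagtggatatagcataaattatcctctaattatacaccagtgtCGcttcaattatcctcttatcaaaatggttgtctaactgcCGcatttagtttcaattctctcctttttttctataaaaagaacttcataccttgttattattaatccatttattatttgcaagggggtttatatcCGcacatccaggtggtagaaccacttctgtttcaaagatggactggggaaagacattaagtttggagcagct
Dlx6os1, not covered: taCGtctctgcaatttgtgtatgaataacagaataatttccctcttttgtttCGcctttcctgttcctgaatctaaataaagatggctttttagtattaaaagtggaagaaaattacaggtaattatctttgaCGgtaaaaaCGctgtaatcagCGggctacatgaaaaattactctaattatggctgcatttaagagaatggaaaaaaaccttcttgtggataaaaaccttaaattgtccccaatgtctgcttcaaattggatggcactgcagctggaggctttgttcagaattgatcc
They had 3 and 5 CG dinucleotides (capitals) and a GC content of 35.3% and 35.7%, and each held TAATTA.

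Some limits of the covered stretches were alike in the libraries other than WT replicate 3, and others were not. The first covered base varied over 5973 bp in the block from Dlx1 to Dlx2, over 4139 bp in the Dlx3 block and over 2081 bp in the Dlx6 block. The block over Dlx6 ended between 6866686 and 6867604 in these 5 libraries, a range of 918 bp, so that the last 964 bp of the Dlx6 body lay outside peaks in all 6 libraries. The next block began between 6870825 and 6873699, a range of 2874 bp, and 3220 bp between the blocks were left without a peak in any library. In the Dlx3-Dlx4 cluster the block over Dlx4 began between 95136240 and 95138244 and ended between 95151781 and 95154441. WT replicate 3 had a further peak of 1.93 kb there that began 1 bp beyond the upstream window of Dlx4 and is not among the peaks counted. Between Dlx3 and Dlx4, chr11:95127088-95136239 held no peak in any library.

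Shared calls were found in the genes and in the gaps alike. Bases covered in all 6 libraries made up 14.6% of the Dlx1-Dlx2 cluster, 10.4% of the Dlx3-Dlx4 cluster and 0% of the Dlx5-Dlx6 cluster, where 52.5% was covered in exactly 5. Of these stretches 4 were longer than 1 kb. The first, chr2:71529358-71531712 (2355 bp), lay over Dlx1. Another, chr2:71538957-71540775 (1819 bp), lay in the gap between Dlx1 and Dlx2, at an annotated promoter of Dlx1as. The other two were chr11:95138244-95140201 (1958 bp), in the gap next to Dlx4, and chr11:95143644-95145381 (1738 bp), in Dlx4 and at the Dlx4os promoter. At least 1 limit of each was set by a short peak of WT replicate 3.

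The genes next to the clusters had little or no mark. Itga6, an integrin chain, lies 199 kb from the Dlx2 body, Tac4, a tachykinin precursor, 115 kb from the Dlx4 body, Sem1 285 kb from the Dlx6 body and Sdhaf3 73.9 kb from the Dlx5 body. Their promoters and bodies were at 0% covered in all 6 libraries. Metap1d, whose 3′ end lies within the Dlx1 upstream window, 2.92 kb from the gene body, had no promoter peak, and 0 to 3.95% of its body was covered, by the outer edge of the Dlx1 upstream peak. Itga3, another integrin chain, 43.3 kb from the Dlx3 body, was the exception, with a promoter peak in WT replicates 1 and 2 and KO replicates 1 and 3. Within 100 kb on either side, the Dlx1-Dlx2 cluster had 0 further peaks in any library, the Dlx5-Dlx6 cluster 0 or 1 and the Dlx3-Dlx4 cluster 1 to 6. The further peak at Dlx5-Dlx6 lay close to the Dlx6 upstream window in 4 libraries. It was 1867 bp away in WT replicate 2 and 444, 927 and 1906 bp away across KO. Its width there was 4.93 kb in WT replicate 2 and 9.54, 10.4 and 2.56 kb across KO, and it is not among the peaks counted.

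**Figure D2:**
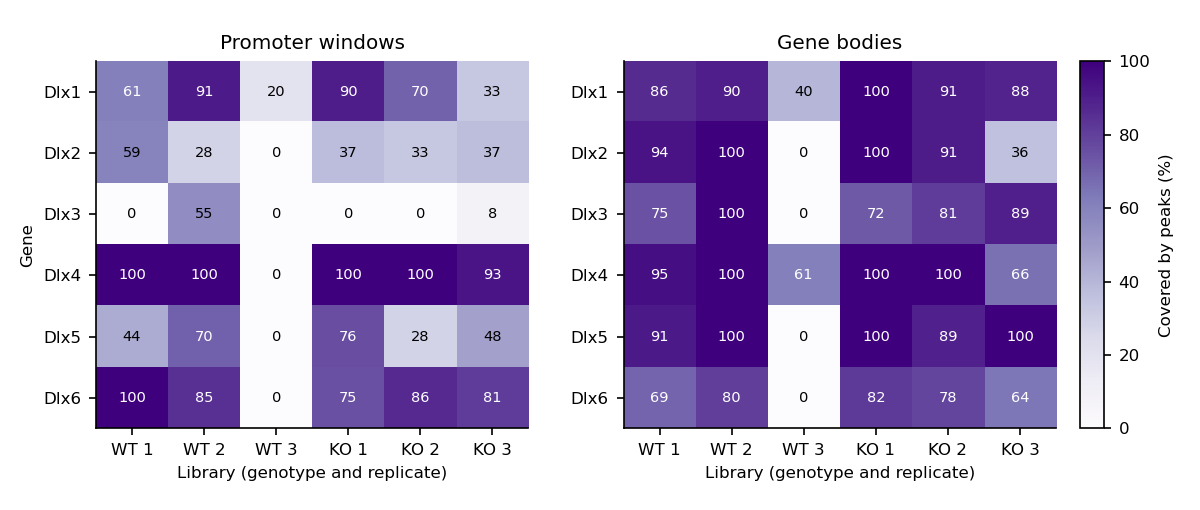
Percent of the promoter windows (left) and of the gene body (right) covered by H3K27me3 peaks, for each Dlx gene (rows) and library (columns), on a scale of 0 to 100. The Dlx4 promoter was covered between 93 and 100% in all libraries but WT replicate 3, and the Dlx3 promoter was at 0 in 4 of 6 libraries, in 3 of which its body was covered.

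The 6 members differed in how much of them was covered. Over promoter and body together, the mean over all 6 libraries was 84.7% ± 26.8 (SD, n = 6) for Dlx4, 67.0% ± 27.9 for Dlx1, 66.02% ± 32.7 for Dlx6, 60.4% ± 31.8 for Dlx5, 42.4% ± 24.7 for Dlx2 and 40.4% ± 24.9 for Dlx3. Neighbors in this order differed by less than their SD. Of 21951 protein coding genes, 82.4% were at 0 in every library, and the members' means stood between the 98.09 percentile (Dlx3) and the 99.98 percentile (Dlx4). Within a library, Dlx4 was covered more than Dlx3 in 6 of 6 libraries and Dlx1 more than Dlx2 in 6 of 6. Dlx6 was covered more than Dlx5 in 3 libraries, less in 2 and equally, at 0, in 1.

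Dlx1 was the member with a promoter peak in every library. It has 6 annotated TSSs and so a wide set of windows, and its outermost TSS lay inside a peak in WT replicate 1 and KO replicates 1 and 2 only. In WT replicate 3 the nearest covered base was 1245 bp inside the gene from that TSS. Its promoter windows were covered by 60.9, 91.2 and 19.6% across WT and by 90.5, 70.0 and 32.9% across KO. The low values were those of replicate 3 in both genotypes, and the genotypes overlapped. Its body was covered by 86.0, 90.2 and 40.1% across WT and 100, 90.7 and 88.5% across KO, again overlapping. A promoter peak in all 6 libraries was found for 2.66% of protein coding genes.

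Dlx2, Dlx4, Dlx5 and Dlx6 each had a promoter peak in 5 of 6 libraries and lacked it in WT replicate 3. The Dlx2 promoter was covered by 59.1, 27.8 and 0% across WT and by 37.2, 33.2 and 36.9% across KO. The Dlx4 promoter was covered by 100, 100 and 0% across WT and 100, 100 and 93.2% across KO. In WT replicate 3 the Dlx4 body was nevertheless covered by 61.1%, with the nearest covered base 882 bp inside the gene from its outermost TSS. Dlx5 promoters were covered by 44, 70.3 and 0% across WT and 75.9, 28.0 and 47.7% across KO. Dlx6 promoters were covered by 100, 85.1 and 0% across WT and 75.3, 86.4 and 81.2% across KO. In each of these genes the genotypes overlapped.

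Dlx3 differed from the others in where its peaks lay. Its promoter had a peak in WT replicate 2 (55.1% covered) and in KO replicate 3 (8.04%) and none in the other 4 libraries. Its body was covered by 74.7, 100 and 0% across WT and by 72.4, 81.2 and 89.5% across KO. In WT replicate 1 and KO replicates 1 and 2 the peak began 1308, 1427 and 976 bp downstream of the TSS. Dlx3 was thus a gene with a covered body and an uncovered promoter window in 3 libraries, 1 WT and 2 KO.

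Promoter peaks were called at 5, 6 and 1 of the 6 Dlx genes across WT, where 10.6, 13.0 and 3.50% of all protein coding genes had one. Across KO they were called at 5, 5 and 6 of the Dlx genes, against 12.9, 12.2 and 8.11% of all genes. The mean was 4 ± 2.65 (SD, n = 3) in WT and 5.33 ± 0.577 across KO. The difference of 1.33 was within the spread of WT (exact two-sided permutation test, p = 0.9), and 3 libraries against 3 cannot give a p below 0.1. It was -0.5 between the libraries with 75 bp reads and -0.167 without WT replicate 3. Dlx2, Dlx4, Dlx5 and Dlx6, 4 of 6 members, had a promoter peak in all 3 KO libraries and not in all 3 WT libraries, as did 4.51% of all genes, and for each of the 4 the library without one was WT replicate 3, which had the fewest peaks of all. The same number of top peaks, 1047, was then kept in every library. Promoter peaks were called at 5, 6 and 1 of the Dlx genes across WT and at 5, 4 and 5 across KO, a difference of 0.667. This number is the whole peak list of WT replicate 3, so its value was fixed in advance, and its narrower peaks were not evened out. The share of all protein coding genes called at this cut was not computed.

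**Figure D3:**
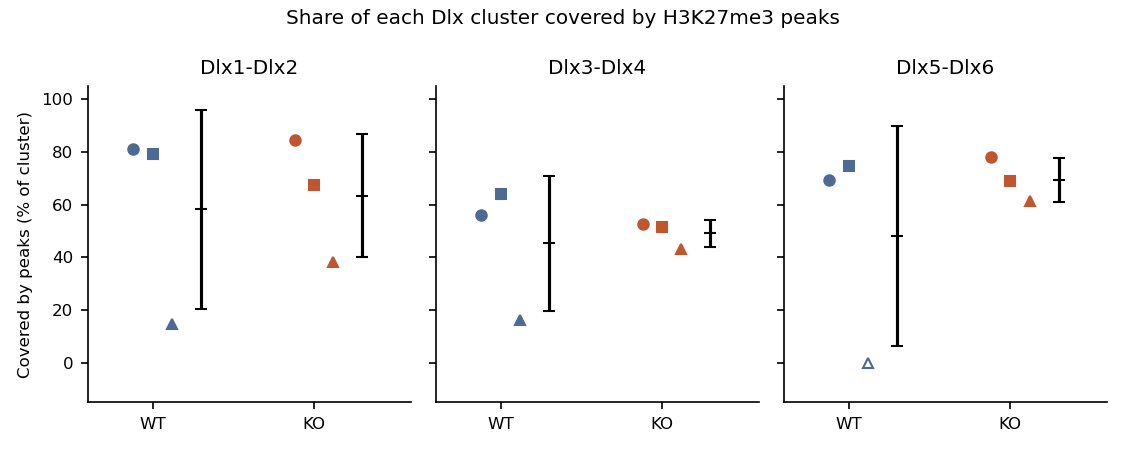
Percent of each Dlx cluster covered by H3K27me3 peaks in WT (blue) and KO (orange) libraries; circles, squares and triangles are replicates 1, 2 and 3, an open symbol is a library with no peak, and black bars are the mean ± SD over 3 libraries. The triangles, the 50 bp libraries, are the lowest of their genotype in each cluster, and the genotypes overlap.

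To compare genotypes over whole clusters, the covered share of each was tested. Peaks covered 81.0, 79.1 and 14.6% of the Dlx1-Dlx2 cluster across WT and 84.5, 67.4 and 38.3% across KO. Replicate 3 was the lowest of both genotypes, and the ranges overlapped. The means were 58.2% ± 37.8 (SD, n = 3) and 63.4% ± 23.4, a difference of 5.17 percentage points (exact two-sided permutation test, p = 0.8). This was -4.09 between the 75 bp libraries and 23.7 between the 50 bp libraries. It was -16.6 without WT replicate 3 and -5.36 without KO replicate 1.

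The Dlx3-Dlx4 cluster was covered by 55.9, 64.03 and 16.2% across WT and by 52.5, 51.7 and 43.2% across KO. All KO values lay within the range of WT. The means of 45.4% ± 25.6 and 49.1% ± 5.17 (SD, n = 3) differed by 3.73 points (exact two-sided permutation test, p = 1), with -7.88 between the 75 bp libraries and 26.9 between the 50 bp libraries. Without WT replicate 3 the difference was -10.8, and all 3 KO values then lay below both WT values (exact two-sided permutation test, p = 0.1, the smallest that this design allows).

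The Dlx5-Dlx6 cluster was covered by 69.5, 74.8 and 0% across WT and by 77.9, 69.0 and 61.3% across KO. The genotypes overlapped here too, and the spread of WT came from the library with no peak. The means of 48.1% ± 41.7 and 69.4% ± 8.32 (SD, n = 3) differed by 21.3 points (exact two-sided permutation test, p = 0.7), with 1.31 between the 75 bp libraries and 61.3 between the 50 bp libraries. Without WT replicate 3 it was -2.75. When the same number of top peaks, 1047, was kept in every library, WT replicates 1 and 2 were at 69.5 and 74.8%. KO replicates 1, 2 and 3 were at 45.4, 46.9 and 61.3%. WT replicate 3 was at 0 by construction, since 1047 is its full number of peaks.

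No single member separated the genotypes. For 0 of 6 Dlx genes was the covered share of promoter and body higher in every KO than in every WT library, which held for 1.58% of the 3860 protein coding genes with a peak in any library, and for 0 of 6 was it the other way round, which held for 0.0777%.

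**Figure D4:**
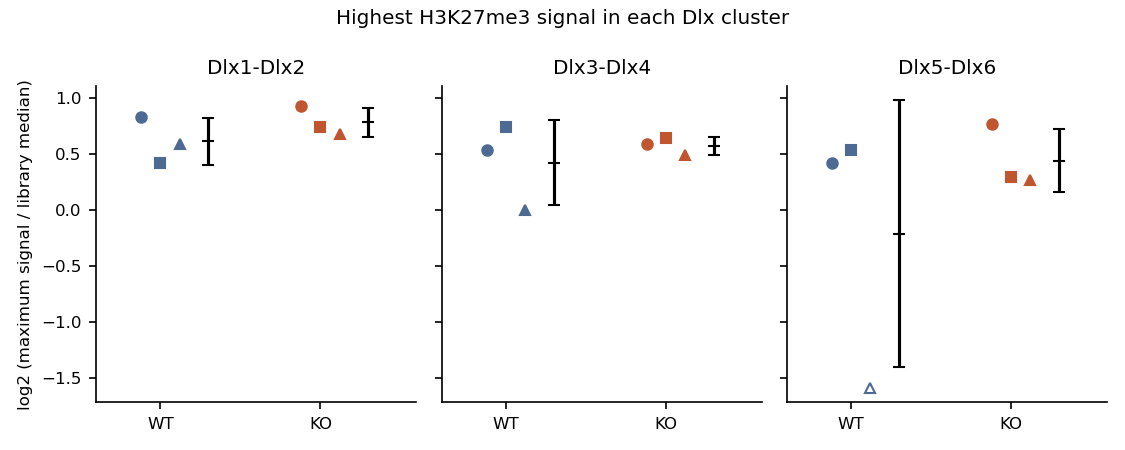
Highest H3K27me3 signal in each Dlx cluster on the log2 scale, divided by the median maximum signal of the library's peaks, for WT (blue) and KO (orange) libraries; circles, squares and triangles are replicates 1, 2 and 3, black bars are the mean ± SD over 3 libraries. The open triangle, WT replicate 3 at Dlx5-Dlx6, had no peak and was set to the smallest maximum that library had.

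The height of the signal was compared next. As deposited, the highest coverage was 16, 12 and 9 in the Dlx1-Dlx2 cluster across WT and 19, 15 and 16 across KO. KO was higher in each of the 3 same-numbered pairs, but KO replicate 2 lay below WT replicate 1. Relative to the median maximum signal of the library and on the log2 scale, the means were 0.61 ± 0.21 across WT and 0.78 ± 0.13 across KO (SD, n = 3). The difference of 0.17 was smaller than the SD of WT (exact two-sided permutation test, p = 0.4). The size depended on the scaling, since it was 0.47 as deposited, where the SD of WT was 0.41 (exact permutation p = 0.3), and 0.59 when scaled to uniquely mapped reads, where it was 0.64 (exact permutation p = 0.4). Taken as pairs, the exact sign-flip test gave 0.25, the smallest p that 3 pairs allow.

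In the Dlx3-Dlx4 cluster the highest coverage was 13, 15 and 6 across WT and 15, 14 and 14 across KO. The log2 difference, scaled as above, was 0.15 (exact two-sided permutation test, p = 0.8) and -0.06 without WT replicate 3. It was 0.44 as deposited and 0.57 scaled to mapped reads, where KO was higher in all 3 pairs. In the Dlx5-Dlx6 cluster it was 12, 13 and no peak in WT and 17, 11 and 12 across KO. The log2 difference, with the missing value set to the smallest maximum signal of the library, was 0.65 (exact two-sided permutation test, p = 0.6) and -0.03 without WT replicate 3. Scaled to mapped reads it was 1.07 (exact permutation p = 0.2), again with KO higher in all 3 pairs. The mean coverage over the peaks of a cluster was 4.18 to 4.95 in WT replicates 1 and 2, 4.08 to 5.23 in KO replicates 1 and 2, 3.6 to 3.92 in KO replicate 3 and 2.31 to 2.48 in WT replicate 3. It differed more between WT replicate 3 and the other libraries than between clusters.

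Total signal was tested in regions with a peak in all 6 libraries, 718 in the genome. The total of a region was the sum over the peaks called in it, so bases outside peaks added 0. Regions without a peak in any 1 of the libraries were left out. None of the 718 had a changed total signal by limma at an adjusted p of 0.05 (0%). At an unadjusted p under 0.05 there were 8, of which 4 were higher and 4 lower in KO. With the replicate block 0 were called and 24 had an unadjusted p under 0.05, 8 higher and 16 lower in KO. The 75 bp libraries alone gave 119 of 2558 regions (45 higher, 74 lower) and the 5 libraries without WT replicate 3 gave 55 of 1622 (38 higher, 17 lower), so the number and its split varied with the libraries used, with 0 called each time. Regions at Dlx1-Dlx2 and at Dlx4 were among the 718. The first, chr2:71522356-71547808, had totals of 94115, 109780 and 10347 across WT and 118943, 88041 and 40866 across KO. Centred on the library median, the log2 values were 1.822, 1.680 and 1.148 across WT and 1.700, 1.569 and 1.348 across KO, so that all libraries lay above their median region and the genotypes overlapped. The difference was -0.01 with a standard error of 0.33 (limma, adjusted p = 0.993). The second, chr11:95136240-95154441, had totals of 78908, 84638 and 17527 across WT and 79595, 83739 and 40753 across KO. Its centred log2 values were 1.567, 1.305 and 1.908 across WT and 1.121, 1.497 and 1.344 across KO, a difference of -0.27 with a standard error of 0.32 (limma, adjusted p = 0.993). The total of WT replicate 3 here includes 3994 from the peak just beyond the Dlx4 window, without which it would be 13533, or 0.37 lower on the log2 scale. The cluster Dlx5-Dlx6 and the Dlx3 block had no region in this test because WT replicate 3 had no peak there.

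Genes of the same developmental pathways were marked as well. The lists were described by counts alone. Of 9 genes that act upstream of Dlx genes, 5 had a promoter peak in at least 5 libraries, as did 6.85% of all protein coding genes. Gsx2, a homeobox gene of the ventral telencephalon, and Bmp4, a signaling ligand, had one in all 6. Ednra, the receptor for endothelin in the branchial arches, and Trp63, an epidermal transcription factor, had none in any library. Of 15 genes that act downstream of Dlx genes or with them, 10 had one in at least 5 libraries, beside the same 6.85%. Lhx6 and Lhx8, LIM homeobox genes of ventral forebrain neurons, and Gsc, a homeobox gene of the jaw, had one in all 6, and Runx2, a transcription factor of bone formation, had none. Ednra, Trp63 and Runx2 were picked out after their values were seen. The median covered share was 51.7% for the first list and 27.5% for the second, against 0% over all protein coding genes. In both lists 0 genes had a peak in all 3 libraries of 1 genotype and in none of the other. The share of all protein coding genes with that pattern was not computed, so this count is not read as a result about the lists.

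In these lists 1 of 24 genes, Nrp2, a semaphorin receptor, named after its values were seen, had a covered share that was higher in every KO than in every WT library. Its promoter and body were covered by 4.65, 4.46 and 1.04% across WT and by 6.73, 5.30 and 5.60% across KO. The 1.58% given above for that order is of genes with a covered base in at least 1 library, which not all 24 are.

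The protein coding genes with the most similar values over the 6 libraries were sought for each member, by Euclidean distance of the percent covered and at least 1 Mb away. For Dlx4 the nearest was Hand1, a basic helix-loop-helix gene of heart and placenta, at a distance of 11.1 (100, 90.0 and 35.4% across WT, 100, 100 and 75.2% across KO). Dlx6 was nearest to Olig1, an oligodendrocyte lineage gene, at 13.3, and Dlx1 to Lhx2, a LIM homeobox gene, at 14.0. Dlx2 was nearest to Insm2 at 15.4, Dlx5 to Cryba2, a lens crystallin, at 19.2, and Dlx3 to Pyy, a gut peptide, at 19.7. Hoxa13 and Hoxc9 were among the nearest 3 of Dlx6 and Dlx5. All these genes share the libraries and their depth, and likeness here is a description of 6 values per gene.

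**Figure D5:**
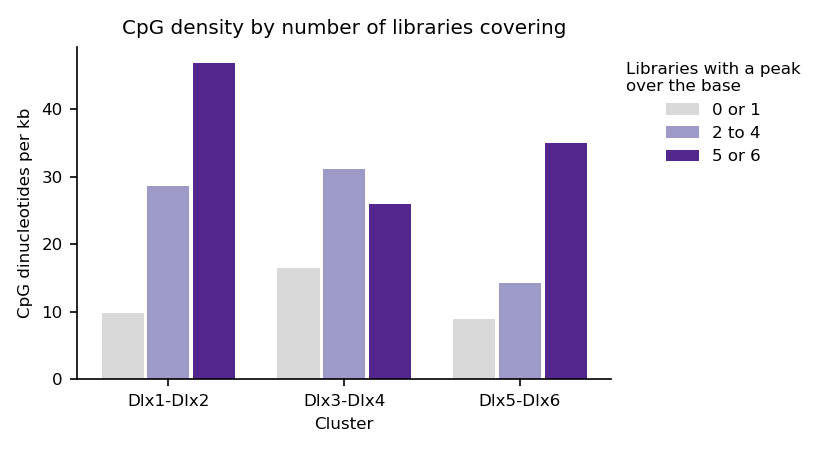
CpG dinucleotides per kb (bars) in each Dlx cluster for bases with a peak in 0 or 1, in 2 to 4 and in 5 or 6 libraries. Bases with a peak in 0 or 1 library have the lowest density in every cluster, and at Dlx3-Dlx4 the middle class is the highest.

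Within each cluster, bases covered in 0 or 1 library had the lowest CpG density. In the Dlx1-Dlx2 cluster the density was 46.9 CpG per kb where 5 or 6 libraries had a peak, 28.7 where 2 to 4 had one and 9.79 where 0 or 1 had one. In the Dlx5-Dlx6 cluster these were 34.9, 14.2 and 8.89. In the Dlx3-Dlx4 cluster the order was different, with 25.9, 31.1 and 16.4. Chromosomes 2, 6 and 11 as a whole had 8.53, 7.97 and 9.80. GC content moved with CpG density, from 45.9 to 57.1% at Dlx1-Dlx2 and from 39.9 to 52.4% at Dlx5-Dlx6 between the least and the most covered class. At Dlx3-Dlx4 it differed less, with 53.3% where 5 or 6 libraries had a peak, 54.4% where 2 to 4 had one and 51.4% where 0 or 1 had one. The part of GC content in the peak calls was not tested. Neighboring bases are not independent, and no test was made.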

How the data were processed

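Peaks of H3K27me3 CUT&Tag were read from 6 deposited files, 3 WT and 3 KO. The authors trimmed the reads with Trim Galore 0.6.6, aligned them to GRCm38 with Bowtie2 2.4.4, removed duplicates and ran SEACR 1.3 on every library by itself, keeping the top 0.5% of regions without a control. Which blacklist was removed is not given in the sources used here. The deposited signal values, total and maximum, are fragment coverage without scaling to depth, so they and the number of peaks change with sequencing depth and background. Limits of precision are therefore those of 3 libraries and of low coverage, and although the study's reporting summary calls the replicates independent, a figure legend on these data names fewer independent experiments than replicates, and no source ties a library to its embryos. The p-values measure the spread between these samples.

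Gene models were GENCODE M21. Promoter windows ran from 5 kb upstream to 100 bp downstream of any TSS. An overlap of 1 bp counted. A cluster ran from the outer end of one upstream window to the other. Covered shares, maximum signal (log2 of the value over the library median) and promoter calls were set against each other in exact two-sided permutation tests with 20 assignments, 7 comparisons in all and not adjusted. Regions called in all 6 libraries were tested with limma 3.58.1 (R 4.3.3) on log2 total signal centred on the library median, with Benjamini-Hochberg adjustment at 0.05. The limma step was run on simulated data with the same spread in all regions and libraries, unlike these libraries. That run does not show what change could be seen here. Python 3.11.15 did the rest.

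Replicate numbers were checked for pairing. Deviations from the group means over 718 regions, which are not independent, correlated between WT and KO libraries of one number (r = 0.277, 0.315 and 0.479). Unmatched 75 bp libraries also correlated (WT replicate 2 with KO replicate 1, r = 0.269, and WT replicate 1 with KO replicate 2, r = 0.116). Replicate 3 of both genotypes also shares its read length, so these values do not settle whether libraries of one number belong together. Pairs by number were an assumption of the sign-flip tests and of 1 alternative with a replicate block. Members, lists and tests were chosen with earlier results of these data known. The genes named were the 6 Dlx genes, noncoding genes within the clusters, the nearest protein coding gene on each side, list genes with a promoter peak in all 6 libraries or in 3 of 1 genotype and 0 of the other, and the 3 most similar genes of each member. Other genes were named after their values were seen, as said beside them. Alternatives changed the peaks used, cluster and promoter limits, scaling, regions tested and libraries, and their read totals for 1 scaling came from the study's reporting summary. The 4 IκBα samples were not analysed here.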

Additional observations from a re-analysis of the deposited data

How the results depend on the processing

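Leaving out WT replicate 3, the library with the fewest peaks, turned the KO minus WT difference in covered share in all 3 clusters. Over the removal of each library in turn it ranged from -16.6 to 17.7 points for Dlx1-Dlx2, from -10.8 to 13.1 for Dlx3-Dlx4 and from -2.75 to 34.6 for Dlx5-Dlx6. The same removals gave 0.0728 to 0.280, -0.0645 to 0.304 and -0.0334 to 1.02 for the log2 maximum signal, -0.167 to 2.33 for the number of promoters, 0 to 0 regions by limma, -0.201 to 0.133 for the log2 total of the Dlx1-Dlx2 region and -0.406 to -0.104 for the Dlx4 region. With replicates 1 and 2 alone the difference was -4.09 (Dlx1-Dlx2 covered), -7.88 (Dlx3-Dlx4 covered), -0.0225 (Dlx3-Dlx4 maximum) and -0.5 (promoters). The Dlx3-Dlx4 covered share also turned with an equal number of top peaks (-0.465) and with 20 kb flanks (-0.356). The log2 difference of the Dlx1-Dlx2 region became 0.137 by maximum signal, 0.165 with regions called in at least 3 libraries and 0.208 with peaks above the library median. That of the Dlx4 region became 0.182 by maximum signal, 0.169 with peaks above the median and 0.0032 per covered base. The cause was not tested. No region passed the limma threshold under any alternative, and the permutation tests, with a smallest p of 0.1, could not pass 0.05. With the replicate block limma called 0 regions. The paired differences (5.17 points covered at Dlx1-Dlx2) equal the unpaired ones by construction, and 3 pairs cannot give a p below 0.25, so the block changed no call but says nothing of stability. A median of 6 to 10 overlapping fragments at the highest point of a library's peaks and 3 libraries per genotype limit what could be seen.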
